A study of Mus musculus with 10 samples.

Results

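The 4 libraries described here follow a leukaemia model over time while its DNMT3A R882H vector stayed on. They are the 2 libraries from day 14 and the 2 from day 5 whose columns are marked R882H on, 4 of the 10 libraries of the series. The leukaemia model, named DIN, began with mouse fetal liver cells given 3 MSCV retroviral vectors. One vector carries DNMT3A R882H with dsRed and is shut off by doxycycline, another carries IDH2 R140Q with GFP, and a further one carries NRAS G12D with TTA. Irradiated female Ptprca mice received the transduced cells, and frozen cells from moribund animals were then passed to new Ptprca recipients. In both groups compared here the recipients had normal chow and water, so all 3 vectors were meant to be on, and the groups differ in the day of harvest, 5 or 14. The 6 libraries of doxycycline-treated recipients, 2 from day 5 and 4 from day 14, carry the same IDH2 and NRAS vectors. They serve as a second time course in which, of the 3 vectors, only DNMT3A R882H was shut off. Doxycycline itself and the loss of R882H cannot be told apart in any comparison of on with off. The sort kept cKit-positive cells without Cd11b, out of marrow and spleen. The labels tie no library to either organ or to a named mouse, and the number of founding leukaemias is not given in the sources used here. All p-values therefore measure the spread between these libraries, which may be technical. Expression was read by 3′ tag sequencing of polyA RNA.

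DNMT3A adds methyl groups to DNA, and the R882H change, frequent in acute myeloid leukaemia, lowers that activity. IDH2 R140Q makes an enzyme that produces 2-hydroxyglutarate, and NRAS G12D is held in its active, GTP-bound form. The progenitor pool of a leukaemia holds cycling cells and slower, more stem-like ones. Histone genes that depend on DNA replication are transcribed in S phase, ribosomal protein genes follow growth, and immediate early genes such as Fos and Egr1 respond within minutes to signals from outside the cell. The comparison of day 14 with day 5 asks how the sorted cells changed as the leukaemia progressed in recipients without doxycycline. The sample titles give no batch of harvest, sort or library preparation. Any handling that differed between the days cannot be told apart from progression.

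Depth, library similarity and the labels were examined first. Totals of the 4 libraries were 9292644 and 13327629 counts at day 5 and 9753834 and 10752147 counts at day 14, and across all 10 libraries they reached 14340624. A count of 0 allows up to 0.323 CPM (counts scaled to library size, with TMM factors) in the shallowest of the 4 libraries and 0.225 CPM in the deepest, for counting error only. Across genes, on log2 CPM, the day 14 replicates correlated at 0.968 and the day 5 replicates at 0.953, while day 5 replicate 2 and day 14 replicate 2 correlated at 0.970. Replicate 2 of day 5 thus lay closer to replicate 2 of day 14 than to its own partner. Kit stood at 51.3 and 56.2 CPM at day 5 and at 88.9 and 98.1 CPM at day 14. The Cd11b gene Itgam stood at 6.74 and 3.08 CPM at day 5 and at 21.9 and 8.76 CPM at day 14. The leukocyte gene Ptprc lay between 253 and 415 CPM, Cd33 between 1.80 and 5.29 CPM, and the granulocyte enzyme gene Mpo between 46.4 and 192 CPM. Elane, another granule enzyme gene, lay between 0.452 and 2.38 CPM, so not every defining granule gene was abundant. The 3 genes at ribosomal RNA loci took 13.2% and 8.49% of counts at day 5 and 15.0% and 13.3% at day 14, and mitochondrial genes took 3.61% and 2.40% and then 2.53% and 2.21%. In bulk samples such as these, fewer cells of a type and less RNA per cell cannot be told apart.

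Of 15916 tested genes, 154 were higher and 216 lower at day 14 with R882H on, at an adjusted p of 0.05 in edgeR's quasi-likelihood test. These are 0.968% and 1.36% of the tested genes and 2.32% together. Groups did not overlap for any of the 370 called genes. That criterion alone is loose, since 20.6% of all tested genes lay wholly higher and 23.1% wholly lower at day 14. Among the rises were 5 immediate early genes and 4 NF-kB targets or chemokines, and among the falls were 15 replication histone genes and 16 cytosolic ribosomal protein genes. The gene lists together held 20 of the rises and 42 of the falls, short non-coding genes aside. Among called genes, 145 of the rises and 138 of the falls were protein-coding, and 78 of the falls and 9 of the rises were not. At least 2-fold changes were estimated for 74 of the rises and 100 of the falls. The smallest adjusted p was 0.0134, so every call lay between that value and the threshold. An unadjusted p under 0.05 was found for 3254 genes, 1442 of them higher and 1812 lower. The count of called genes was 0 without day 14 replicate 1, 31 without day 14 replicate 2, 187 without day 5 replicate 1 and 680 without day 5 replicate 2. It was also 0 when only these 4 libraries were fitted, with 1633 genes at an unadjusted p under 0.05. With the replicate number as a block it was 1014, of which 509 were higher and 505 lower. Of the called genes 41.6% were higher, a share that became 50.7% with RLE scaling and 61.6% with library totals alone.

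**Figure D1:**
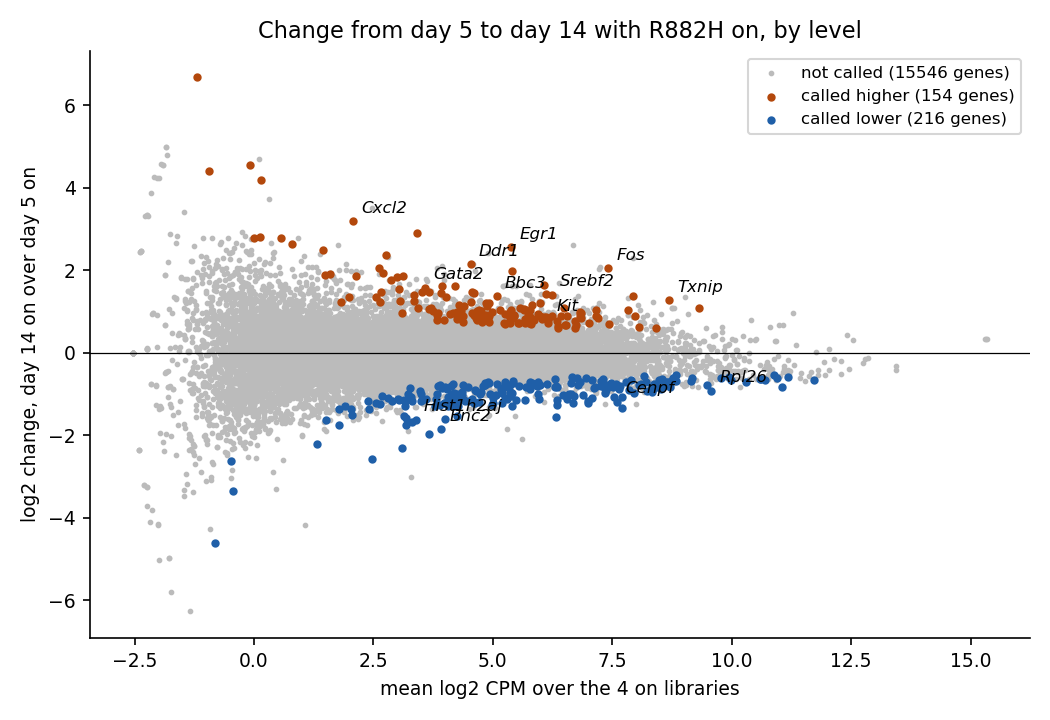
Log2 change from day 5 to day 14 with R882H on (vertical axis) against the mean log2 CPM of the 4 libraries (horizontal axis), 1 point per tested gene. The 154 genes called higher and 216 called lower are coloured, and many of the called falls at high levels are ribosomal protein genes such as Rpl26.

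Immediate early genes were the list with the most called rises. Of 20 tested, 5 rose and none fell (25% called, against 0.968% of all genes called higher), and the median log2 change was 1.21 where that of all genes was 0. Egr1, a zinc finger factor, stood at 11.9 and 23.2 CPM at day 5 and at 121 and 87.3 CPM at day 14. Both day 14 libraries were far above both day 5 libraries, a log2 change of 2.55 ± 0.45 (SE) with an adjusted p of 0.0327. Fos, a subunit of AP-1 on chromosome 12 (85473890 to 85477273, mm10), stood at 104 and 66.8 CPM and then at 419 and 287 CPM (log2 change 2.05 ± 0.39, adjusted p = 0.0388). Klf4, a Krüppel-like factor of monocytic cells, stood at 27.2 and 17.4 CPM and then at 123 and 52.7 CPM. Its day 14 libraries differed more from each other than those of Egr1 or Fos, and the log2 change was 1.99 ± 0.36. Zfp36, whose protein binds AU-rich messages and speeds their decay, stood at 36.4 and 40.2 CPM and then at 138 and 101 CPM (log2 change 1.64 ± 0.28, adjusted p = 0.0283). Jund, another AP-1 subunit, stood at 39.6 and 45.1 CPM and then at 130 and 97.8 CPM (log2 change 1.43 ± 0.28). The phosphatase gene Dusp1 had a log2 change of 2.61 but an adjusted p of 0.0786, with 49.0 and 37.0 CPM before and 350 and 176 CPM after. In all, 16 of the 20 had an unadjusted p under 0.05 in the upward direction, against 1442 of all 15916 tested genes. Day 14 lay wholly above day 5 in 17 of the 20, against 20.6% of all tested genes. Dusp1 was chosen for display after its values were seen.

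Zfp36 is shown with its promoter because it is the called immediate early gene whose window holds a CArG box, the motif bound by serum response factor. The sequence is the 250 bases before the RefSeq start (GRCm38.p6), written 5′ to 3′ on the gene's strand, with the CArG box in capitals.
Zfp36, chr7:28379229-28379478, minus strand: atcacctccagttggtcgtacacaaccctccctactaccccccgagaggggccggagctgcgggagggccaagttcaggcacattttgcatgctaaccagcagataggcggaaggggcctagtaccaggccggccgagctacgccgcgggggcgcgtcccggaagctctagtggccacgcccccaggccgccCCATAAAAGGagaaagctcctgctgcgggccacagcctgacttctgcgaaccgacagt
The capitals lie 58 to 49 bases before the start. Both strands were searched, and the counts that follow use the full window, 250 bases before and 50 after the start. A CArG box was present in 1 of the 4 called immediate early genes with a window, in 2 of 17 tested members with one, and in 1.81% of all 27025 genes with a window. None of the 4 held the cyclic AMP element TGACGTCA, which 2 of the 17 members and 2.03% of all genes held. An NF-kB site was present in 1 of the 4, Fos, in 4 of the 17 members and in 5.14% of all genes. A match describes letters and not binding.

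NF-kB targets and chemokines showed 4 rises and no fall among 19 tested genes, with a median log2 change of 0.81. This is 21.1% called, against 0.968% of all genes called higher. Cxcl2, a neutrophil-attracting chemokine on chromosome 5 (90903871 to 90905938), stood at 1.01 and 1.58 CPM at day 5 and at 14.1 and 10.3 CPM at day 14. This was the second-smallest p of the genes named here, with a log2 change of 3.19 ± 0.37 and an adjusted p of 0.0134. Nfkbiz, an inducible nuclear IkB protein gene, stood at 6.97 and 6.46 CPM and then at 19.3 and 18.0 CPM (log2 change 1.47 ± 0.24). Tnfaip3, which encodes the ubiquitin-editing NF-kB inhibitor A20, stood at 5.51 and 3.00 CPM and then at 13.4 and 16.5 CPM (log2 change 1.83 ± 0.39). Nfkb2, a subunit gene, stood at 3.60 and 3.83 CPM and then at 12.3 and 8.31 CPM (log2 change 1.47 ± 0.33, adjusted p = 0.0478). It overlaps Psd on the other strand, whose counts were 197% of its own, so its value is uncertain. The called genes thus encode an inhibitor of the pathway (A20), a nuclear IkB protein, a subunit and a chemokine. Icam1, Birc3, Il1b and Bcl2a1b, also usual targets, had log2 changes between -0.04 and 0.06.

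The windows of Cxcl2, Nfkb2 and Tnfaip3 are shown because all 3 hold an NF-kB site, in capitals, with overlapping matches merged.
Cxcl2, chr5:90903649-90903898, plus strand: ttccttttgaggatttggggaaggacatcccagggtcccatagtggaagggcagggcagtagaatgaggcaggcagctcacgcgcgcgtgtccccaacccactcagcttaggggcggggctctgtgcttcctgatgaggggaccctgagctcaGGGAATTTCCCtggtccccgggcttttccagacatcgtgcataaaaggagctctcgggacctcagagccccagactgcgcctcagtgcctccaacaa
Nfkb2, chr19:46304487-46304736, plus strand: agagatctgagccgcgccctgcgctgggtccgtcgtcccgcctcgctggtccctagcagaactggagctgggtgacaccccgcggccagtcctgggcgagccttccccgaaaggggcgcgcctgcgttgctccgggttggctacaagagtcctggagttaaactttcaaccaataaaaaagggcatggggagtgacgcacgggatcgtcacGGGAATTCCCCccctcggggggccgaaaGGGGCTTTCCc
Tnfaip3, chr10:19015411-19015660, minus strand: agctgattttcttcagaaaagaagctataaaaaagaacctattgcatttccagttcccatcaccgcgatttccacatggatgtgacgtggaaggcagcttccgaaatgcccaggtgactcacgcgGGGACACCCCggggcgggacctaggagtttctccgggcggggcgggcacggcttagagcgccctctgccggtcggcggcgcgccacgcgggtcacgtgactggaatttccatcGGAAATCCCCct
Cxcl2 has 2 overlapping matches whose letters span 97 to 87 bases before its start. Nfkb2 has 3 matches, 2 of them overlapping, and Tnfaip3 has 2. For genes with several RefSeq starts, 3 for Nfkb2 and 2 for Tnfaip3, 1 start is shown. A site was found in 3 of the 3 called genes of the list with a window, in 6 of the 13 tested members with one, and in 5.14% of all genes. Nfkbiz was not matched.

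Other rises among the 12 largest included receptors, ligands and transcription factors. Ddr1, a collagen-binding receptor tyrosine kinase on chromosome 17 (35681567 to 35704621), stood at 8.21 and 13.9 CPM at day 5 and at 55.6 and 43.6 CPM at day 14 (log2 change 2.15 ± 0.31, adjusted p = 0.0157). Efnb1, the ephrin B1 ligand, stood at 17.3 and 11.1 CPM and then at 43.2 and 35.5 CPM (log2 change 1.48 ± 0.28). Igf2r, the mannose 6-phosphate receptor, stood at 11.9 and 9.01 CPM and then at 32.4 and 31.4 CPM. In these receptors and ligands no day 5 library reached a day 14 library, which the rule for the largest rises required. Foxj2, a forkhead factor, stood at 8.43 and 9.01 CPM and then at 30.8 and 22.5 CPM (log2 change 1.61 ± 0.22, adjusted p = 0.0134). Gata2, a factor of stem cells, mast cells and megakaryocytes, stood at 8.43 and 5.56 CPM and then at 26.0 and 15.4 CPM (log2 change 1.58 ± 0.35, adjusted p = 0.0466). The zinc finger gene Zfp703 had a log2 change of 1.53 ± 0.32. Kit rose by less, a log2 change of 0.80 ± 0.14 (adjusted p = 0.0327), and was the only call among 13 stem and progenitor surface genes, whose median log2 change was 0.13. Since the cells were gated on cKit protein, the Kit level is not independent of the sort. Among the other surface genes Cd34 had 52.6 and 84.0 CPM and then 67.4 and 82.6 CPM, with overlapping groups.

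Genes that restrain the cycle or favour death were among the rises as well. Of 17 cell cycle inhibitor and quiescence genes 3 rose and none fell (17.6% called, median log2 change 0.54). Over all tested genes 0.968% were called higher, and several lists below hold a single call. Btg1, an antiproliferative gene, stood at 177 and 130 CPM at day 5 and at 469 and 325 CPM at day 14 (log2 change 1.37 ± 0.21, adjusted p = 0.0207). Txnip, an inhibitor of thioredoxin and of glucose uptake, stood at 213 and 322 CPM and then at 575 and 723 CPM (log2 change 1.28 ± 0.23). The third call was Egr1, which is also in this list. Of 13 BCL2 family genes 2 rose, both encoding BH3-only proteins that promote apoptosis. Bbc3, which encodes PUMA and is also the only p53 target called of 13, stood at 20.5 and 21.3 CPM and then at 54.0 and 54.2 CPM. Its replicates agreed closely at both days, with a log2 change of 1.37 ± 0.17 and an adjusted p of 0.0134. Bcl2l11, which encodes BIM, stood at 15.4 and 22.9 CPM and then at 51.5 and 37.8 CPM (log2 change 1.21 ± 0.26). Of 19 RAS and MAPK output genes Egr1 and Spry1 rose. Spry1, a feedback inhibitor of RAS signalling, had 0 and 3 counts at day 5 and 24 and 46 counts at day 14, a ratio of 25.7 with a 95% counting interval of 8.45 to 128. The feedback genes Dusp6, Spry2 and Etv4 overlapped between days, with log2 changes of 0.36, 0.33 and 0.29. Srebf2, which encodes the regulator SREBP2, stood at 49.2 and 43.3 CPM and then at 140 and 105 CPM (log2 change 1.41 ± 0.22, adjusted p = 0.0207). It was the only call of 23 cholesterol synthesis genes. Kdm6b, an H3K27 demethylase gene, was the only call of 20 polycomb and trithorax genes, at 15.6 and 12.8 CPM and then 26.3 and 30.4 CPM.

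Replication histones had the lowest median of the lists. Of 66 tested genes 15 fell and none rose (22.7% called, against 1.36% of all genes called lower), with a median log2 change of -0.90. Hist1h2aj, on chromosome 13 (21721457 to 21721808) and annotated as a pseudogene in GENCODE M21, stood at 18.1 and 17.8 CPM at day 5 and at 5.60 and 6.05 CPM at day 14. It had the smallest p of all the genes named here, a log2 change of -1.62 ± 0.18 with an adjusted p of 0.0134. Hist1h2ab, a histone H2A gene on the same chromosome (23751126 to 23751598), stood at 26.0 and 33.7 CPM and then at 12.2 and 12.1 CPM (log2 change -1.30 ± 0.17). Hist1h2bk, a histone H2B gene, stood at 15.6 and 13.8 CPM and then at 5.70 and 4.43 CPM (log2 change -1.54 ± 0.24). Hist1h2ao, the most counted of the genes named here from this list, stood at 155 and 145 CPM and then at 72.5 and 71.3 CPM. In each of these 4 genes both day 14 libraries lay well below both day 5 libraries. The calls are not 15 separate observations, because histone copies are near-identical and reads can be split among them. In addition, 13 of the 15 lie opposite a called miRNA gene model whose counts were 55.7% to 97.7% of the histone's, and these make up 13 of the 22 miRNA gene models called lower. Replication histone messages mostly lack polyA tails, so their reads in a polyA library depend on the share with tails, which was not measured.

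The DNA replication and mitosis lists moved less. Of 30 replication genes 3 fell and none rose (10% called, against 1.36% of all genes called lower), with a median log2 change of -0.45. Downward, 16 had an unadjusted p under 0.05, against 1812 of all 15916 tested genes. Prim1, the small primase subunit, stood at 18.8 and 16.5 CPM and then at 8.81 and 7.5 CPM (log2 change -1.11 ± 0.20, adjusted p = 0.0302). Pole, the catalytic subunit of polymerase epsilon, had a log2 change of -0.81 ± 0.18, and Rfc3, a clamp loader subunit, one of -0.70 ± 0.15. Of 24 mitosis genes 2 fell (8.33% called; median log2 change -0.37). Cenpf, a kinetochore protein gene of late G2 phase, stood at 291 and 294 CPM and then at 118 and 139 CPM (log2 change -1.19 ± 0.17, adjusted p = 0.0141). Nusap1, a spindle protein gene, stood at 88.2 and 125 CPM and then at 65.5 and 53.3 CPM. The median of the mitosis list ranged from -0.66 to -0.05 over the alternatives, and that of the replication list from -0.60 to -0.33.

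Of 78 cytosolic ribosomal protein genes tested, 16 fell and none rose (20.5% called), 76 had a negative estimate, and the median log2 change was -0.47. Rpl26 stood at 1097 and 1003 CPM at day 5 and at 548 and 564 CPM at day 14 (log2 change -0.92 ± 0.12, adjusted p = 0.0134). Rps6, a small subunit gene, stood at 519 and 562 CPM and then at 347 and 359 CPM (log2 change -0.61 ± 0.12). Rpl35 had a log2 change of -0.70, and its reads overlap those of Wdr38. Complex I of the respiratory chain had 1 fall of 36 (Ndufa12, log2 change -1.21 ± 0.26), with 35 negative estimates and a median of -0.36. Of 13 protein genes of the mitochondrial genome 1 was called, mt-Nd4l, which overlaps mt-Nd4, and the median was -0.42. Mitochondrial ribosomal proteins had 1 fall of 80 (Mrpl19, 1.25% called) and a median of -0.26. Of all 15916 tested genes, 1.36% were called lower and 7957 had a negative estimate, so the share for Mrpl19's list is near that of all genes. Ndufa12, mt-Nd4l and Mrpl19 were called by DESeq2 but not by limma voom (adjusted p = 0.0597, 0.0667 and 0.0525). In the MYC and ribosome biogenesis list 2 of 26 genes fell, 8 had a positive estimate, and the median was -0.17. That median became 0.18 without day 5 replicate 2. The called genes, the nucleolar Gnl3 and Nop56, fell by 0.80 and 0.86 on the log2 scale. Gnl3 overlaps Pbrm1, and Nop56 overlaps Idh3b, whose counts were 31.7% of its own. The ribosomal RNA share was higher at day 14, where these lists were lower. It was 13.2% and 8.49% at day 5 and 15.0% and 13.3% at day 14. Day 5 replicate 1 and day 14 replicate 2 thus had nearly the same share. Changes also differed by gene length. The 2436 shortest protein-coding genes by summed exon length had a median log2 change of -0.08, with 46 called lower and 16 higher. For the 2435 longest it was 0.12, with 25 lower and 42 higher. The part of either in these falls was not tested.

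The remaining largest falls belong to no single group. Rny3, a Y RNA gene, stood at 27.5 and 11.6 CPM at day 5 and at 3.42 and 4.43 CPM at day 14 (log2 change -2.30 ± 0.49, adjusted p = 0.0451). Bnc2, a zinc finger protein gene on chromosome 4 (84275095 to 84675275), stood at 23.8 and 33.7 CPM and then at 6.43 and 9.48 CPM. It was the largest fall of a protein-coding gene among the 12, with a log2 change of -1.85 ± 0.26 and an adjusted p of 0.0134. Adarb1, which encodes the RNA-editing deaminase ADAR2, stood at 39.1 and 26.4 CPM and then at 9.12 and 13.3 CPM (log2 change -1.54 ± 0.29). Gnat1, the rod transducin subunit gene, stood at 32.5 and 23.4 CPM and then at 8.60 and 9.66 CPM. Arid5a, whose protein stabilises inflammatory messages, stood at 57.4 and 42.5 CPM and then at 15.2 and 27.3 CPM. Snora73b, a small nucleolar RNA gene inside Snhg3 and Rcc1, stood at 20.5 and 31.6 CPM and then at 10.3 and 11.1 CPM. Its host genes carry several times its counts, so its own level is uncertain. Ccdc63, Smco1 and Ak9, an adenylate kinase gene, had log2 changes of -1.29, -1.27 and -1.23. The rule that picked the largest falls required that day 5 and day 14 libraries not overlap.

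**Figure D2:**
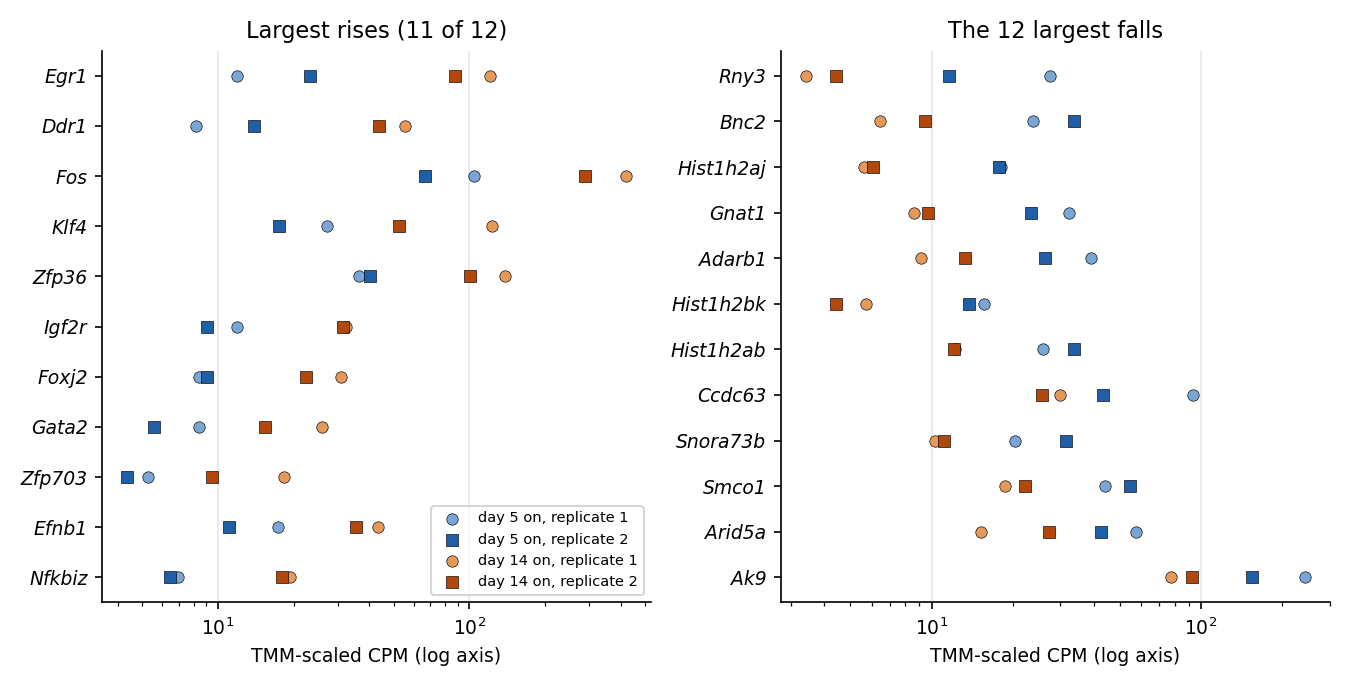
TMM-scaled CPM (log axis) of 11 of the 12 largest called rises and of the 12 largest called falls in each of the 4 libraries with R882H on, circles for replicate 1 and squares for replicate 2. By the rule that picked these genes, both day 14 points lie to the right of both day 5 points in rises and to the left in falls. The day 14 replicates of Klf4 lie apart.

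The vector genes were measured through their mouse counterparts, and whether the tags of the vectors map to these genes is not given in the sources used here. Dnmt3a stood at 52.8 and 51.2 CPM at day 5 and at 55.9 and 73.6 CPM at day 14 (log2 change 0.32 ± 0.19, adjusted p = 0.376). Idh2 stood at 111 and 156 CPM and then at 59.8 and 119 CPM (log2 change -0.58 ± 0.29, adjusted p = 0.294). Nras stood at 131 and 153 CPM and then at 144 and 157 CPM (log2 change 0.09 ± 0.14, adjusted p = 0.778). None of the 3 passed the test, and only Dnmt3a had no overlap between days.

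Markers of other cell types gave few calls. In the megakaryocyte and platelet list, 1 of 10 tested genes rose, and the median log2 change of 1.52 was the highest of the lists. Gp5, a platelet glycoprotein gene, stood at 0.112 and 0.451 CPM and then at 2.28 and 2.08 CPM (adjusted p = 0.0422). Its level in day 5 replicate 1 lay under the 0.323 CPM that 3 counts make there without the TMM factor. The call was lost in 7 of 15 alternatives, limma voom (adjusted p = 0.138) and library totals (adjusted p = 0.0515) among them, over a range from 1.48e-05 to 1. Summed over 14 listed genes, the level of this list was 41.6 and 45.3 CPM at day 5 and 72.1 and 81.9 CPM at day 14. Gata2 was the call of the eosinophil, basophil and mast cell list, 7 of whose genes were tested; Mcpt4 and Tpsab1 were at 0 in all 4 libraries. No gene was called among 24 erythroid, 20 monocyte and macrophage, 19 late neutrophil, 13 primary granule, 15 dendritic cell and MHC class II, 20 T and NK cell, 11 B and plasma cell or 4 stromal genes by edgeR. Of these, 7 monocyte, 6 erythroid and 3 B cell genes were higher at an unadjusted p under 0.05, against 1442 of all 15916 tested genes. The other lists had at most 2 per direction. DESeq2 called 3 erythroid genes and 1 monocyte gene higher and 1 late neutrophil gene lower. Itgam, in the monocyte list, had a log2 change of 1.66 ± 0.68 and an adjusted p of 0.205. Summed erythroid genes reached 1742 and 3826 CPM at day 5 and 1879 and 2591 CPM at day 14, so the days overlapped on that scale. The replicates differed more than the days in several lists. Summed MHC class II and dendritic cell genes reached 9194 and 4570 CPM at day 5 and 11904 and 5292 CPM at day 14, higher in replicate 1 at both days. The monocyte list gave 1425 and 628 CPM and then 1904 and 806 CPM, again with replicate 1 above replicate 2. Its median log2 change of 0.49 became -0.17 without day 14 replicate 1, and that of the dendritic cell list went from 0.50 to -0.10. Immediate early genes and Klf4 also include myeloid genes, and the part of these cell types in their rise was not tested.

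**Figure D3:**
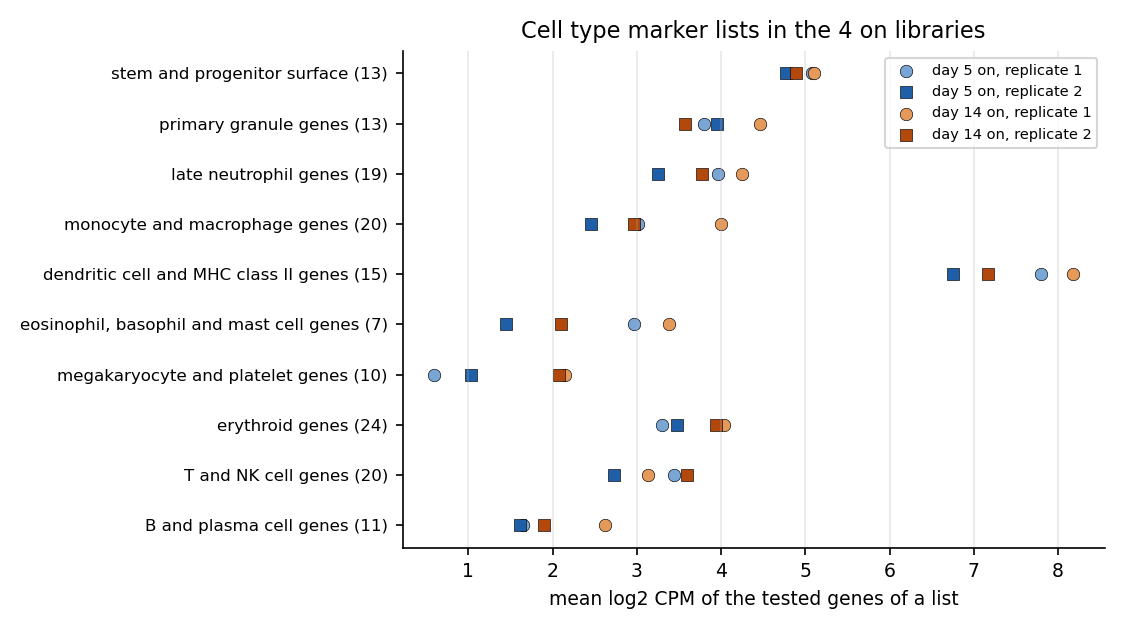
Mean log2 CPM of the tested genes of each cell type list (number of genes in brackets) in the 4 libraries with R882H on. Replicate 1 lies above replicate 2 at both days for dendritic cell and mast cell genes, and both day 14 libraries lie above both day 5 libraries for megakaryocyte, erythroid and B cell genes on this scale.

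Several pathways held no called gene. These included 46 interferon-stimulated genes (median log2 change 0.10), 20 genes of MHC class I presentation (-0.06), 20 glycolysis genes (0.15), 9 heme synthesis enzymes (0.28), 14 lipoylation and cuproptosis genes (-0.15), 15 copper and metallothionein genes (-0.02) and 17 DNA methylation and IDH genes (0.09). At an unadjusted p under 0.05 there were 6 interferon-stimulated genes higher and 8 lower, and at most 3 genes per direction in each of the others. Of all 15916 tested genes, 1442 were higher and 1812 lower at that level. DESeq2 called 1 higher and 2 lower class I genes, 3 lower copper genes and 1 higher methylation gene, and none in the other lists named here. The medians of these lists lay within 0.28 of that of all genes. The mean log2 CPM of the interferon list was 3.99 and 3.01 at day 5 and 3.54 and 3.47 at day 14, so the day 5 replicates lay on either side of both day 14 libraries. Iigp1, an interferon-induced GTPase gene of that list, stood at 70.6 and 8.11 CPM at day 5 and at 8.19 and 1.63 CPM at day 14. Tap2, a peptide transporter gene of class I presentation, stood at 176 and 61.0 CPM and then at 631 and 532 CPM, with an adjusted p of 0.0527, and was chosen after its values were seen. The 13 TGF-beta targets had a median of 0.75 with no call by edgeR and 4 rises by DESeq2, and Smad7, an inhibitor of the pathway, had a log2 change of 0.93 and an adjusted p just above the threshold.

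**Figure D4:**
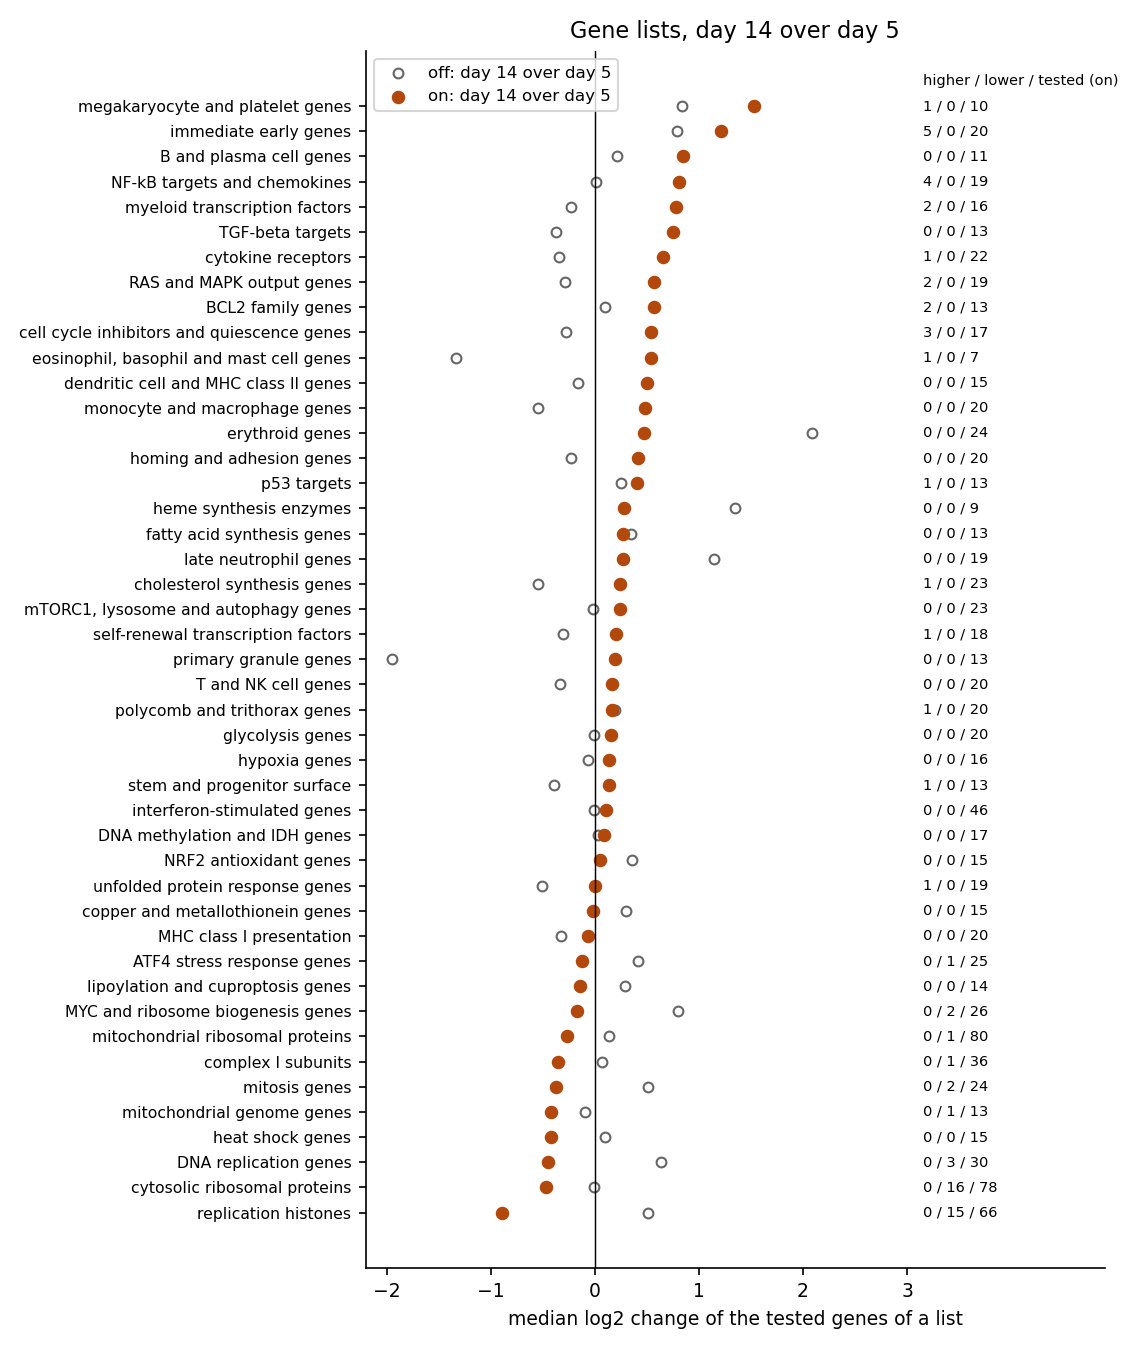
Median log2 change, day 14 over day 5, of the tested genes of the gene lists with R882H on (filled) and off (open), with the numbers called higher, called lower and tested in the on comparison at the right. Immediate early and NF-kB lists lie at 1.21 and 0.81 with R882H on, and replication histones at -0.90 on against 0.51 off.

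The same days were then compared in the doxycycline-treated recipients, whose 6 libraries enter the on comparison through the filter, the scaling and the shared estimate of spread, and not through its group means. There 2706 genes were called (17% of those tested, 10.1% higher and 6.94% lower), with 4 libraries at day 14 and not 2. Of the 370 genes called with R882H on, 86 were also called in the same direction with it off, 36 in the opposite direction, and 248 were not called. A gene called in one time course and not in the other is not thereby different, so the difference of the changes, on minus off, was tested directly. It was called for 487 genes (3.06%), 225 higher (1.41%) and 262 lower (1.65%) with R882H on, and 96 of the 370 were among them. Immediate early genes were not: edgeR called no difference in that list, where 2 of 20 had an unadjusted p under 0.05, and its median was 1.21 on and 0.79 off. Egr1 had a log2 change of 2.55 on and 2.79 off, a difference of -0.24 ± 0.57. Bcl2l11, at 1.21 on and 1.38 off, and Adarb1, at -1.54 on and -1.46 off, also changed alike in direction and were called in both time courses.

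Of 66 replication histone genes 16 had a called difference, all lower with R882H on. The list's median log2 change was -0.90 on and 0.51 off. Hist1h2aj, which fell with R882H on, stood at 11.1 and 11.1 CPM at day 5 off and at 27.3, 24.5, 28.0 and 24.8 CPM at day 14 off. The difference of the changes was -2.85 ± 0.23 (adjusted p = 0.000921). Hist1h2ab, Hist1h2ae, Hist1h2ag and Hist1h2ao had differences of -2.25, -2.11, -2.13 and -2.05. Of the DNA replication list 12 of 30 genes differed, all lower with R882H on, and of the mitosis list 6 of 24. The replication list's median log2 change was -0.45 on and 0.63 off, with 3 genes called lower on and 16 called higher off. For the mitosis list it was -0.37 on and 0.51 off, with 2 called lower on and 7 called higher off. Of all tested genes 10.1% were called higher off. Prim1 and Pole, which fell with R882H on, had log2 changes of 0.08 and 0.47 off. Snora73b had a log2 change of -1.29 on and 2.30 off.

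Some surface and signalling genes differed the other way. Kit had a log2 change of 0.80 on and -0.28 off (difference 1.08 ± 0.19, adjusted p = 0.022), with 43.3 and 40.3 CPM at day 5 off and 36.1, 34.6, 30.9 and 36.4 CPM at day 14 off. Ddr1 had a log2 change of 2.15 on and -0.50 off (difference 2.65 ± 0.41, adjusted p = 0.0123), and Efnb1 one of 1.48 on and -0.66 off. Srebf2 had a log2 change of 1.41 on and -0.04 off, a difference of 1.45 ± 0.29. In the cholesterol list 4 of 23 genes had a called difference, Srebf2, Hmgcs1 and Cyp51 among them. Hmgcs1 and Cyp51 had on log2 changes of 0.18 and 0.15 that were not called. The list's median was 0.24 on, with 1 gene called higher, and -0.55 off, with 7 called lower. Emp1, an epithelial membrane protein gene, gave the largest difference among the 6 named on this side: 25.3 and 39.2 CPM then 104 and 68.2 CPM on, and 12.8 and 6.33 CPM then 0.508, 0.879, 0.688 and 1.51 CPM off. Its difference was 4.83 ± 0.56 (adjusted p = 0.00317), while its rise with R882H on had an adjusted p of 0.0700. Ahnak and Ccl9, a chemokine gene, had on estimates of 1.36 and 1.07 that edgeR did not call (adjusted p = 0.0553 and 0.129). Tnfrsf13b, Cd244a and B3gnt5 had on estimates of 0.29, 0.21 and 0.21 and off falls of 2.02, 1.93 and 2.21 on the log2 scale. In edgeR's test these 6 genes were called lower in the off libraries and were not called in the on libraries. DESeq2 called the on rises of Emp1 (adjusted p = 0.0103) and Ahnak (adjusted p = 0.00151). Over 15 alternatives the adjusted p of the on rise ran from 2.48e-06 to 1 for Emp1, from 4.28e-09 to 1 for Ahnak and from 0.00179 to 1 for Ccl9, each lowest without a low-count filter. Dnmt3a had a log2 change of 0.32 on and -0.73 off (difference 1.05 ± 0.25, adjusted p = 0.0492). Of 9 heme synthesis enzymes Alas2, Urod and Fech had lower changes on than off, with on log2 changes of 0.51, -0.42 and 0.28 that were not called. The count of called differences ran from 106 to 965 when single libraries were left out.

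**Figure D5:**
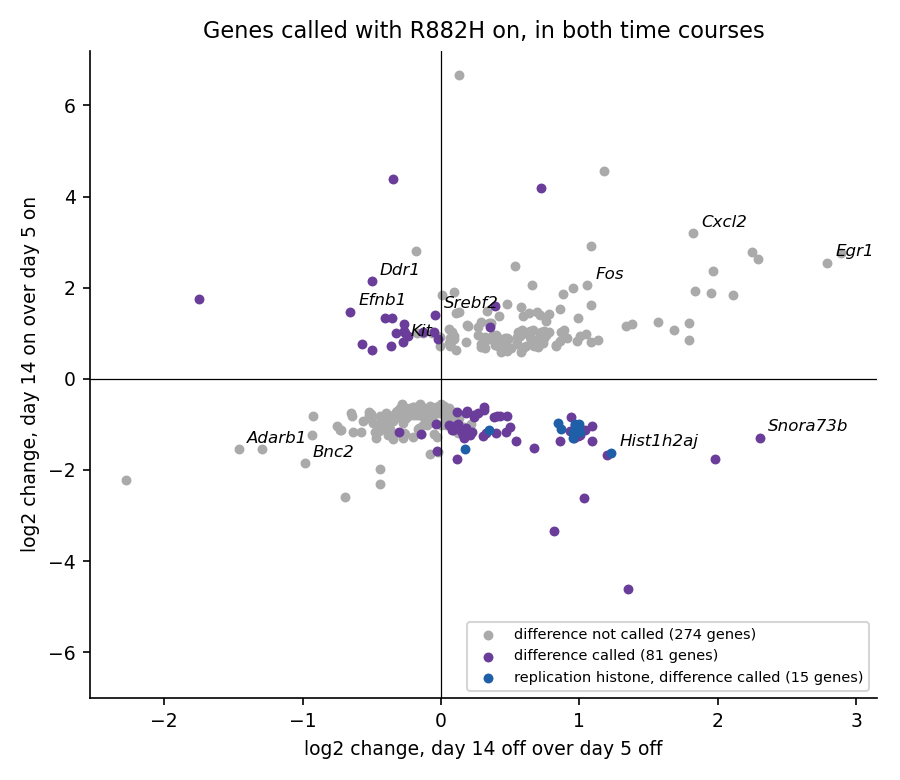
Log2 change from day 5 to day 14 with R882H on (vertical axis) and off (horizontal axis) of the 370 genes called with R882H on, coloured by whether the difference was called. The 15 called histone genes all lie below zero on the vertical axis and above zero on the horizontal axis.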

How the data were processed

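The table that the authors deposited holds whole-number read counts, not normalised, for 52636 Ensembl genes in 10 libraries. The tools in the submitters' processing notes include HISAT2 2.0.4 and featureCounts of Subread 2.0.0, with the build mm10. No source used here gives the strand setting or the annotation release. GENCODE M21 matched 52489 gene IDs, and 514 genes overlap another gene whose counts were within 25% of theirs in every library.

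The tests were run in edgeR 4.0.16 under R 4.3.3 (filterByExpr, TMM scaling, a robust quasi-likelihood fit with 1 mean per group over all 10 libraries, Benjamini-Hochberg over 15916 genes), with limma 3.58.1 and DESeq2 1.42.0 as alternatives. Errors are standard errors of the log2 change, and CPM values are TMM-scaled, with log2 CPM at a prior count of 2. Named genes are 12 rises and 12 falls, the largest of those called, given non-overlapping groups, an average log2 CPM not under 3 over the 4 on libraries and a symbol that is no predicted gene model, up to 4 called genes of each list (or 2 of smallest p), 5 fixed genes, and 6 genes in each direction of the difference. A few genes, 1 of the 12 largest rises among them, are not reported here. Other genes given with values were chosen after those were seen. The members and gene lists were chosen with earlier results of these data known. Alternatives were another scaling, filter, test, replicate block, minimum change, gene or library set. Promoter windows are from RefSeq (GRCm38.p6), matched by symbol. Motif counts use 300 bases, 250 before and 50 after the start, and the sequences shown are the 250 before it.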

Additional observations from a re-analysis of the deposited data

Results flagged for a closer look

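Of the 111 genes named by the rule, 28 had a called difference between the day change with R882H on and that with R882H off (edgeR's quasi-likelihood test of the difference). All values that follow are log2 differences, on minus off. Above zero lay Emp1 at 4.83, Ccl9 at 3.68, Ahnak at 3.26, Id1 at 2.66, Ddr1 at 2.65, B3gnt5 at 2.42, Tnfrsf13b at 2.30, Cd244a at 2.15, Efnb1 at 2.13, Srebf2 at 1.45, Smad7 at 1.31, Foxj2 at 1.21, Kit at 1.08 and Dnmt3a at 1.05. Below zero lay Mt2, a metallothionein gene, at -3.87, Snora73b at -3.59, Hist1h2aj at -2.85, Hist1h2ab at -2.25, Hist1h2ag at -2.13, Hist1h2ae at -2.11, Hist1h2ao at -2.05, Hist1h2bk at -1.71, Ak9 at -1.39, Urod at -1.35, Pole at -1.29, Nusap1 at -1.23, Prim1 at -1.20 and Gnl3 at -1.03. With R882H on Mt2 had a log2 change of -1.85 that was not called (adjusted p = 0.0563).

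In 9 genes 1 of the 4 day 14 off libraries lay far from the other 3. Its level was 49.3 CPM for Rfc3, 349 CPM for Ldha, 104 CPM for Gnl3, 32.4 CPM for H2-Q6, 1.72 CPM for Id1, 1.69 CPM for Spry1, 1.35 CPM for Iigp1, 1.27 CPM for Cd14 and 0.376 CPM for Hgf. Chance alone puts about 1 in 20 such groups past this limit, and the libraries with R882H on, 2 per day, are too few for this check.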

How the results depend on the processing

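Direction was kept more often than the calls. All called genes had non-overlapping groups, so leaving out 1 library could hardly change their sign, and the other alternatives reused the same libraries. Of 44 called genes followed through 15 alternatives none changed sign, and the calls kept numbered 41 with RLE scaling, 33 with library totals only, 40 without the 3 ribosomal RNA locus genes, 43 with DESeq2, 33 with limma voom, 34 of 38 where genes sharing counts with a neighbour and non-coding genes were left out, and 0 with only the 4 on libraries, with a 2-fold minimum or without day 14 on replicate 1. Uncalled genes followed the same way gave 1 sign change, that of Nras, at -0.021 without day 5 on replicate 1 and 0.24 without day 5 on replicate 2. Other genes given with values were not followed. Of 47 gene lists 32 kept the sign of their median in every alternative, and the median of the immediate early list ranged from 1.0 to 1.49, of the NF-kB list from 0.46 to 1.36, of replication histones from -1.02 to -0.46 and of cytosolic ribosomal proteins from -0.57 to -0.30.

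Counts of genes called on, against 370 (154 higher, 216 lower), were 190 with library totals only (73 lower), with 139 lower under RLE scaling. They were 1275 without a low-count filter (773 higher, 502 lower), 1136 with DESeq2 (549 and 587), 142 lower where genes sharing counts and non-coding genes were left out, and 0 with a 2-fold minimum or only the 4 on libraries. The fit on those 4 has fewer samples to estimate the spread; the cause of the other shifts was not tested. For the difference, against 487 (225 and 262), counts were 124 lower with library totals only, 1957 without a filter (1182 and 775), 1327 with DESeq2 (646 and 681) and 30 with a 2-fold minimum (10 and 20). Leaving out 1 library gave 0 to 680 genes called on (0 to 322 higher, 0 to 358 lower) and 106 to 965 called differences (54 to 414 higher, 51 to 551 lower). Without day 14 on replicate 1 the on count was 0 by edgeR, with 2200 genes at an unadjusted p under 0.05, and with a 2-fold minimum 255 genes were at that level. Where 1 library remained in a group, its spread was taken from the other groups.

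The replicate numbers share only a number in the labels. Same-numbered libraries deviated together between day 5 on and day 14 on (r = 0.334), day 5 off and day 5 on (r = 0.203), and day 5 off and day 14 on (r = 0.300), each with 2 numbers, and with the replicate block 1014 genes were called on (509 higher, 505 lower) and 1521 differences (801 and 720), with 43 of the 44 genes kept.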
